A study of Mus musculus with 27 samples.

Results

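The 7 genes described here encode amino acid transporters of the hepatocyte plasma membrane: Slc38a3, Slc38a2, Slc38a4, Slc7a2, Slc43a1, Slc3a2 and Slc16a10. They were picked by symbol from a table of 21823 genes, and all 7 were found and passed the filter on low values. The table holds RNA-seq levels of lobular zones 1, 2 and 3 that were cut from frozen liver sections by laser microdissection, in which a laser cuts chosen areas out of a tissue section. The mice were wild-type (WT) female C57BL/6 animals (the substrain is C57BL/6N in the study's methods), and no group carried a further allele or treatment. The stages were non-pregnant (NP) and days 8 (dpc8) and 16 (dpc16) post coitum. Each of the 9 combinations of stage and zone has 3 libraries, 27 in all. By convention, zone 1 borders the portal vein, zone 3 the central vein, and zone 2 is the intermediate area. Each library is a bulk sample of a cut area, so that fewer cells of a type and less RNA per cell cannot be told apart.

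The liver takes up amino acids from portal blood for protein synthesis, gluconeogenesis and urea formation, and releases others to the circulation. Periportal hepatocytes are known for ureagenesis and glutamine breakdown, whereas the hepatocytes next to the central vein make glutamine from ammonia and glutamate. Sodium-coupled carriers of the Slc38 family concentrate amino acids in the cell, and sodium-independent carriers such as Slc43a1 and Slc16a10 let them pass down their gradient.

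Levels are given as FPKM, a unit that divides fragments by transcript length and by depth, and levels of different genes are compared only on this scale. The summed FPKM of a library ranged from 499866 to 988500, and depth estimated from the steps between low values was 7.56 to 33.67 M reads (M for the prefix mega) in the 23 libraries that gave an estimate. Zone markers were as follows. The 7 periportal markers summed to 1569 to 4538 FPKM in zone 1 and 11.84 to 86.01 in zone 3, and the 7 pericentral markers to 238.2 to 461.9 in zone 1 and 6377 to 17860 in zone 3. In 6 libraries 4 Y-linked genes summed to 7.92 to 23.2 FPKM, against at most 2.97 in the others, although all mice were labelled female. In zone 1 these were replicate 1 of NP and replicate 1 of dpc8, in zone 2 they were replicate 2 of dpc8 and replicate 3 of dpc16, and in zone 3 they were replicate 2 of NP and replicate 3 of dpc16. Their 8 connective tissue and smooth muscle markers summed to 816.5 to 4419 FPKM, against 11.64 to 524.8 in the other libraries, and their 6 hepatocyte markers to 36310 to 61780, against 31680 to 223200. The hepatocyte sum also moved with stage. In the libraries without Y-linked FPKM it was 31680 to 97200 in NP, 33540 to 66210 at dpc8 and 143800 to 223200 at dpc16, whereas the dpc16 libraries with Y-linked FPKM had sums of 46460 and 61780. The 6 libraries were kept, and values without them are given where leaving them out changed a call of a member. Their part in the results was not tested beyond this.

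The genes lie on several chromosomes of the mm10 build (positions from GENCODE). Slc38a2 and Slc38a4 are both on the minus strand of chromosome 15, at chr15:96687392-96699730 and chr15:96994820-97055956. Slc38a3 is at chr9:107650634-107669530 (minus strand), Slc7a2 at chr8:40862396-40922308 (plus), Slc43a1 at chr2:84838850-84863594 (plus), Slc3a2 at chr19:8706882-8723369 (minus) and Slc16a10 at chr10:40033532-40142258 (minus). Slc7a2 overlaps the long non-coding gene Gm26584 and Slc16a10 the small nucleolar RNA gene Gm25613, each on the opposite strand.

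Promoter windows, 250 bases before to 50 bases after a RefSeq start site on GRCm38.p6, were found for 5 of the 7 genes. The windows of the 3 genes called between stages are shown, each read along the strand of its gene. Capitals mark matches on either strand to CTTTGA, TTCNNNGAA or TATAAA, which do not overlap in these windows. Slc38a4 has more than 1 listed start, and the window of the most upstream one, chr15:97055907-97056206 on the minus strand, is given, followed by Slc16a10 at chr10:40142205-40142504 on the minus strand and Slc43a1 at chr2:84840073-84840372 on the plus strand.
Slc38a4: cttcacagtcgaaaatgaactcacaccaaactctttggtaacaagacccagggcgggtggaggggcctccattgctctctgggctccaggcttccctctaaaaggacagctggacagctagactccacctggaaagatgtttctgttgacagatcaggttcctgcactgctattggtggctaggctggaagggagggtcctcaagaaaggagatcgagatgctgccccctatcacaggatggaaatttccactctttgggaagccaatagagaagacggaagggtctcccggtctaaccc
Slc16a10: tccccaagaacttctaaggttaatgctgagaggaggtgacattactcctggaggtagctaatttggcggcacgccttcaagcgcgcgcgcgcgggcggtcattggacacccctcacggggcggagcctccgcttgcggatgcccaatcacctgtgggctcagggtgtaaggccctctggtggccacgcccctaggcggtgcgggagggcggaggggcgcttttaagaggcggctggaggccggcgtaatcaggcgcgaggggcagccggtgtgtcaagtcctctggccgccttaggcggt
Slc43a1: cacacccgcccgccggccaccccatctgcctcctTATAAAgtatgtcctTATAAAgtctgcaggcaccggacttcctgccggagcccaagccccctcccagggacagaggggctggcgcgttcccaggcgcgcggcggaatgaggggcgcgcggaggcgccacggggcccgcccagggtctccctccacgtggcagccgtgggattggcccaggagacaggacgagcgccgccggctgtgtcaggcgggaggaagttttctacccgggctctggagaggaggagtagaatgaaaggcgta
The Slc43a1 window holds TATAAA at 2 places, starting at positions -216 and -201 from the start site. The windows shown for Slc38a4 and Slc16a10 hold none of the 3 words, and another listed Slc38a4 window, chr15:97031164-97031463, holds TATAAA at position -208. Among 32851 windows of the same length, 5257 held CTTTGA, 2726 (8.3%) held TTCNNNGAA and 4473 (13.6%) held TATAAA. These matches describe letters in the windows only.

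The levels of the 7 transcripts covered a wide range. Slc38a3 (SNAT3), a sodium-coupled carrier of glutamine, histidine and asparagine, made up a median of 51.5% of the summed FPKM of the 7 genes, from 36.8% to 68.0% over the libraries. Slc38a4 (SNAT4), a system A carrier of small neutral amino acids found mainly in liver, followed with a median share of 26.5%, from 6.52% to 41.0%. Slc43a1 (LAT3), a sodium-independent carrier of branched-chain and other large neutral amino acids, had the lowest share, with a median of 0.438%.

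**Figure D1:**
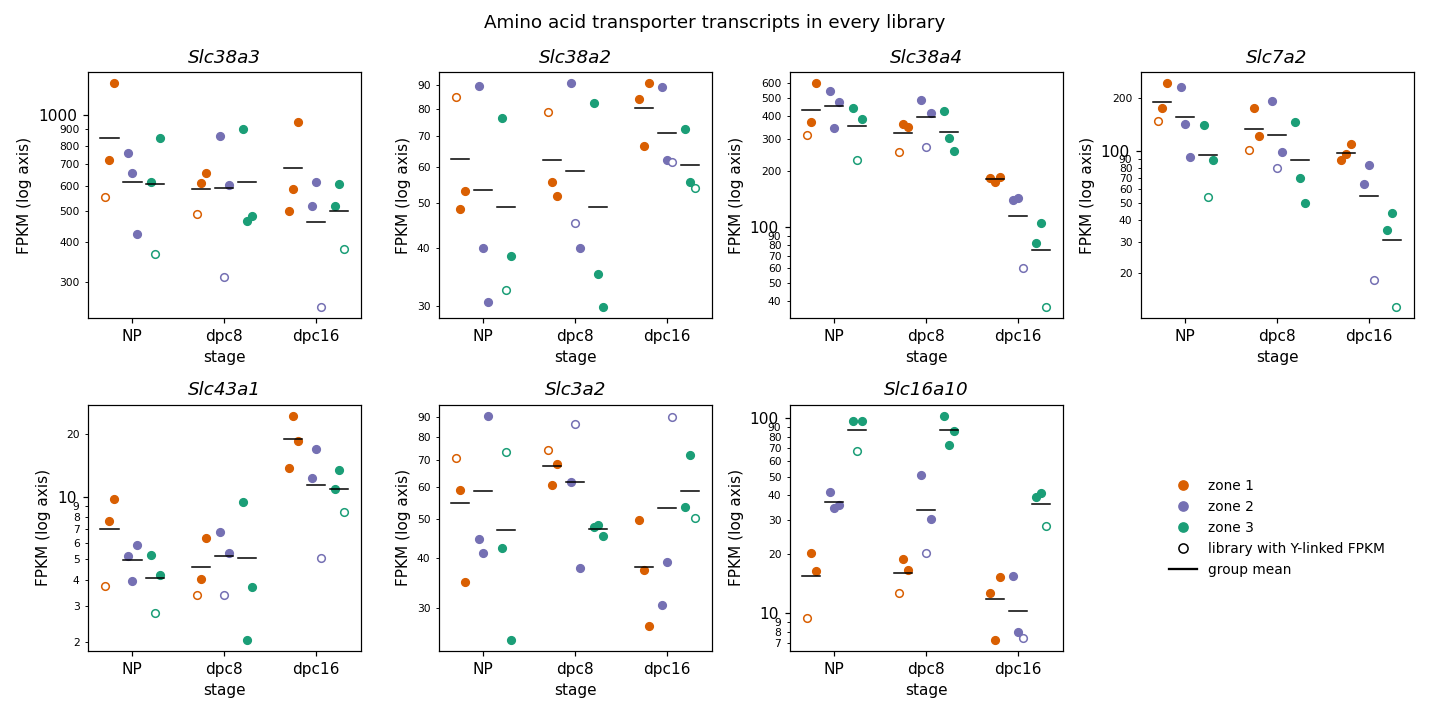
FPKM of the 7 transporters in every library (log axis) by stage, with zones in colour, a bar for the group mean of 3 libraries, and hollow points for the 6 libraries with Y-linked FPKM. Slc38a4 lies lower at dpc16 in all zones, Slc16a10 lies highest in zone 3, and Slc38a3 and Slc38a2 overlap between all neighbouring groups in the order of their means.

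Tests across genes were made with limma on log2(FPKM + 1) over 12952 genes, and a gene is said to have changed where its Benjamini-Hochberg adjusted p was under 0.05. Fold changes on this scale understate those of weakly expressed genes. The labels do not say whether libraries came from separate animals, so p-values measure the spread between these samples.

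Slc16a10 (TAT1), a carrier of aromatic amino acids, was the member that differed between zones at every stage, with higher levels toward the central vein. In NP mice its libraries read 9.35, 20.3 and 16.4 FPKM in zone 1, 41.6, 34.4 and 35.5 in zone 2, and 96.2, 67.2 and 96.3 in zone 3. At dpc8 they read 12.6, 18.8 and 16.5 in zone 1, 50.8, 20.3 and 30.4 in zone 2, and 102.5, 72.9 and 86.0 in zone 3. At dpc16 they read 12.6, 7.26 and 15.3 in zone 1, 15.4, 7.97 and 7.38 in zone 2, and 39.5, 41.4 and 27.7 in zone 3. The 3 zones did not overlap in NP and dpc8 mice, whereas at dpc16 zones 1 and 2 overlapped and zone 3 lay above both.

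In limma, Slc16a10 was lower in zone 1 than in zone 3 by a log2 fold change of -2.46 (SE 0.33, adjusted p = 6.875e-05) in NP mice, the 1 member called beside 1.34% of all genes tested. At dpc8 the difference was -2.38 (SE 0.33, limma adjusted p = 0.0001241), again the 1 member called, with 1.61% of all genes. At dpc16 it was -1.59 (SE 0.33, limma adjusted p = 0.009407), the 1 member called beside 1.55% of all genes. The dpc16 call was lost when dpc16 zone 1 replicate 2, dpc16 zone 3 replicate 1 or dpc16 zone 3 replicate 2 was left out, with log2 fold changes from -1.79 to -1.30 and limma adjusted p of up to 0.0981 over the libraries left out, and in a fit of the compared groups alone (limma adjusted p = 0.0527). Stellate cell markers also summed higher in zone 3, at 150.9 to 218.4 FPKM against 88.96 to 136.6 in zone 1 of NP mice and 156.7 to 157 against 55.5 to 77.26 at dpc8. At dpc16 they overlapped, at 90.37 to 155.2 in zone 3 against 88.05 to 106.3 in zone 1. Hepatocyte markers summed higher in zone 1 at dpc8, at 36930 to 66210 against 33540 to 34400 in zone 3. At dpc16 they summed to 168500 to 223200 in zone 1 against 61780 to 153000. Biliary markers were also higher in zone 1 at dpc8 and dpc16, and Kupffer cell and sinusoidal endothelium markers at dpc16. The part of these sums in the zone difference was not tested.

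Averaged over the stages, Slc16a10 was lower in zone 1 than in zone 3 by -2.14 (SE 0.19, limma adjusted p = 4.661e-08) and lower in zone 2 than in zone 3 by -1.46 (SE 0.19, limma adjusted p = 4.618e-05). The zone 2 to zone 3 step had 1 member called beside 1.88% of all genes, and the zone 1 to zone 2 step had 0 members called beside 0.919% of all genes. For that step the log2 fold change of Slc16a10 was -0.68 with a 95% interval from -1.08 to -0.28 (limma adjusted p = 0.138).

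Slc7a2 (CAT2), a carrier of arginine and other cationic amino acids, had the opposite order, with its highest levels in zone 1. Its libraries in NP mice read 146.6, 175.6 and 242.3 FPKM in zone 1, 229.8, 141.7 and 91.9 in zone 2, and 140.2, 54.3 and 88.2 in zone 3. At dpc8 they read 100.8, 173.8 and 121.5 in zone 1, 191.6, 79.3 and 98.2 in zone 2, and 144.5, 69.8 and 50.3 in zone 3. At dpc16 they read 88.0, 95.5 and 108.7 in zone 1, 64.9, 82.5 and 18.3 in zone 2, and 35.4, 44.3 and 12.9 in zone 3. Zone 1 lay above zone 3 without overlap in NP and dpc16 mice, and the zones overlapped at dpc8.

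Averaged over the stages, Slc7a2 in zone 1 exceeded zone 3 by a log2 fold change of 1.18 (SE 0.31, limma adjusted p = 0.02212), so that 2 of the 7 members were called in this comparison beside 5.59% of all genes. The call was lost without NP zone 3 replicate 2, without dpc8 zone 1 replicate 2 or without dpc8 zone 3 replicate 3, with a largest limma adjusted p of 0.0583. At dpc16 alone the difference was 1.79 with a 95% interval from 0.69 to 2.89 (limma adjusted p = 0.121). With libraries of the same number and stage treated as a replicate block, the limma adjusted p of Slc7a2 at dpc16 was 0.04716. Hepatocyte markers also summed higher in zone 1 than in zone 3 at dpc8 and dpc16, and stellate cell markers lower in NP and dpc8 mice. At dpc16 Kupffer cell markers summed to 75.96 to 128.2 FPKM in zone 1 against 24.22 to 45.65 in zone 3. Sinusoidal endothelium markers summed to 110.1 to 123.1 against 60.27 to 101.9. The part of these sums in the zone difference of Slc7a2 was not tested.

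No member changed between NP and dpc8. In limma, 0 of 7 were called in zone 1 (0.0309% of all genes), 0 in zone 2 (0.00772%) and 0 in zone 3 (0.0154%). At an unadjusted p under 0.05, 406 genes passed in zone 1, 656 in zone 2 and 355 in zone 3, and none of the members was among them. The largest difference was that of Slc7a2 in zone 1, a log2 fold change of -0.51 with a 95% interval from -1.61 to 0.59. Intervals of this width do not show that levels were equal.

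Slc38a4 fell at dpc16, the stage at which the hepatocyte markers summed highest in the libraries without Y-linked FPKM. Its libraries in zone 1 read 313.3, 369.2 and 599.0 FPKM in NP mice, 254.4, 359.9 and 346.8 at dpc8, and 183.4, 175.2 and 186.5 at dpc16. In zone 2 they read 540.8, 343.5 and 471.0 in NP mice, 488.2, 272.2 and 414.9 at dpc8, and 140.1, 143.2 and 60.2 at dpc16. In zone 3 they read 438.6, 231.7 and 384.8 in NP mice, 420.8, 302.7 and 256.7 at dpc8, and 81.9, 105.6 and 37.1 at dpc16. All dpc16 libraries lay below all NP and dpc8 libraries of their zone, and zone 1 at dpc16 lay above zones 2 and 3.

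Against NP, the log2 fold change of Slc38a4 was -2.05 in zone 2 (SE 0.38, limma adjusted p = 0.003533) and -2.29 in zone 3 (SE 0.38, limma adjusted p = 0.001356). In zone 1 it was -1.17 with a 95% interval from -1.96 to -0.38, which did not pass (limma adjusted p = 0.161). With each library scaled to the same FPKM sum, which moved the median of all genes to -0.572, it was -1.79 (limma adjusted p = 0.0002101). The lowest dpc16 values in zones 2 and 3 came from the libraries with Y-linked FPKM. Without all 6 such libraries the log2 fold changes were -1.37, -1.64 and -2.13 in zones 1, 2 and 3, and zone 1 was then called as well (limma adjusted p = 0.002652). A fit on the 6 libraries of each comparison alone, which has fewer degrees of freedom, lost the calls in zones 2 and 3 (limma adjusted p = 0.134 and 0.0920). Markers of other cell types moved with these changes. The 5 Kupffer cell markers summed to 24.22 to 45.65 FPKM in zone 3 at dpc16, below the 61.92 to 95.84 in NP and the 97.92 to 148.1 at dpc8, and to 37.23 to 155.6 in zone 2 at dpc16, below the 172.9 to 287.1 in NP. The 5 sinusoidal endothelium markers summed to 60.27 to 101.9 in zone 3 at dpc16 against 112.2 to 123.9 in NP, and the 5 stellate cell markers there to 90.37 to 155.2 against 156.7 to 157 at dpc8. The part of these sums and of the hepatocyte sum in the dpc16 changes was not tested.

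Against dpc8, Slc38a4 was lower by -1.83 in zone 2 (SE 0.38, limma adjusted p = 0.01345) and by -2.20 in zone 3 (SE 0.38, limma adjusted p = 0.002334). In zone 1 it was -0.80 with a 95% interval from -1.59 to -0.01, and -0.96 without the 6 libraries with Y-linked FPKM, where it was called (limma adjusted p = 0.02757). With same-sum scaling, which moved the median of all genes in this comparison to -0.662, it was -1.51 and was called (limma adjusted p = 0.001378). The zone 2 call was lost when replicate 1 or 3 of dpc8 or replicate 3 of dpc16 was left out, and the log2 fold changes ran from -2.07 to -1.42 over the libraries left out. It was also lost in a fit of the compared groups alone (limma adjusted p = 0.345). Both sets of comparisons share the dpc16 libraries.

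Slc16a10 also fell at dpc16 in zone 2, from group means of 37.2 ± 3.84 (SD, n = 3) FPKM in NP and 33.8 ± 15.5 at dpc8 to 10.3 ± 4.47. The log2 fold change was -1.83 against NP (SE 0.33, limma adjusted p = 0.003014) and -1.60 against dpc8 (SE 0.33, limma adjusted p = 0.01308). The change against dpc8 was lost when replicate 1 or 3 of dpc8 or replicate 2 of dpc16 was left out, and the log2 fold changes ran from -1.91 to -1.27. In fits of the compared groups alone both calls were lost (limma adjusted p = 0.0850 against NP and 0.363 against dpc8). In zone 3 the dpc16 libraries lay below all NP and dpc8 libraries, with log2 fold changes of -1.24 and -1.25 that did not pass (limma adjusted p = 0.0690 and 0.0638). Without the libraries with Y-linked FPKM they were -1.23 and -1.08 and passed (limma adjusted p = 0.04235 and 0.04878). In zone 1 the groups overlapped. The pericentral markers in zone 2 also summed lower at dpc16, to 938.3 to 2050 FPKM against 3297 to 5633 in NP and 2442 to 4140 at dpc8, and their part in the zone 2 change was not tested.

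Slc43a1 had its highest levels at dpc16. Its libraries in zone 1 read 3.71, 7.62 and 9.69 FPKM in NP mice, 3.36, 4.03 and 6.36 at dpc8, and 13.8, 24.4 and 18.4 at dpc16. In zone 2 they read 5.18, 3.93 and 5.83 in NP mice, 6.73, 3.38 and 5.38 at dpc8, and 12.2, 16.9 and 5.06 at dpc16. In zone 3 they read 5.24, 2.76 and 4.22 in NP mice, 9.38, 2.06 and 3.69 at dpc8, and 10.9, 13.4 and 8.40 at dpc16. The dpc16 libraries lay above both other stages in zone 1 and above NP in zone 3, and overlapped otherwise.

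The rise of Slc43a1 passed the test against dpc8 in zone 1, with a log2 fold change of 1.83 (SE 0.42, limma adjusted p = 0.02494). It was lost when replicate 1 or 2 of dpc8 or replicate 2 or 3 of dpc16 was left out, with limma adjusted p of up to 0.136. Against NP the log2 fold changes were 1.36 in zone 1 (95% interval 0.48 to 2.23), 0.93 in zone 2 (0.05 to 1.81) and 1.24 in zone 3 (0.37 to 2.12), with limma adjusted p of 0.137, 0.265 and 0.184. With array weights, which let libraries count unequally in the fit, it was called in zones 2 and 3 as well, at 1.51 and 1.32 against NP (limma adjusted p = 0.009979 and 0.03507) and at 1.26 and 1.54 against dpc8 (limma adjusted p = 0.04011 and 0.001563). In zone 1 the hepatocyte markers summed to 168500 to 223200 FPKM at dpc16 against 36930 to 66210 at dpc8. The pericentral markers there summed to 238.2 to 277.9 against 365.6 to 405.7. The sinusoidal endothelium markers summed to 110.1 to 123.1 against 60.3 to 70.78, and the stellate cell markers to 88.05 to 106.3 against 55.5 to 77.26. The 4 biliary markers summed to 4.92 to 10.87 against 12.45 to 15.62. The part of these sums in the result was not tested.

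Counted over the members, dpc16 against NP gave 0 of 7 called in zone 1 (1.37% of all genes), 2 in zone 2 (2.66%) and 1 in zone 3 (1.32%). Against dpc8 the counts were 1 in zone 1 (2.01%), 2 in zone 2 (1.51%) and 1 in zone 3 (1.37%). Slc7a2 did not pass in any of these without further scaling, with log2 fold changes against NP of -0.92 in zone 1, -1.62 in zone 2 and -1.64 in zone 3 (limma adjusted p = 0.582, 0.110 and 0.152). With same-sum scaling it was called against NP in all zones, at -1.53, -1.92 and -1.93 (limma adjusted p = 0.0452, 0.007961 and 0.01252), and against dpc8 at -1.68 in zone 2 and -1.78 in zone 3 (limma adjusted p = 0.02345 and 0.0181). That scaling moved the median of all genes to between -0.662 and -0.152 in these 6 comparisons. The dpc16 libraries of Slc7a2 lay below all its NP libraries in every zone.

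**Figure D2:**
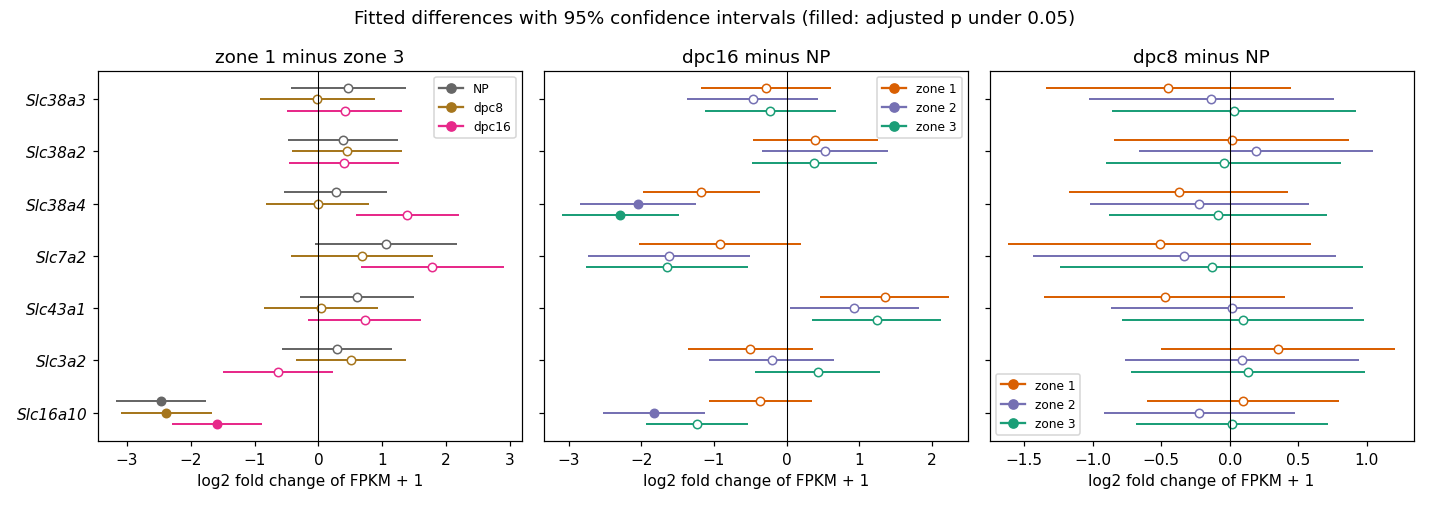
Log2 fold change of FPKM + 1 for the 7 transporters, with 95% confidence intervals, for zone 1 minus zone 3 at each stage, dpc16 minus NP and dpc8 minus NP in each zone (filled points passed the adjusted threshold of 0.05). Slc16a10 lies at -2.46, -2.38 and -1.59 in the zone comparison, Slc38a4 at -2.05 and -2.29 in zones 2 and 3 at dpc16, and all dpc8 points are open.

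Whether the changes differed between zones was tested directly, and no member passed. The change at dpc8 in zone 1 minus that in zone 3 gave 0 members called and 0% of all genes, with 306 genes at an unadjusted p under 0.05. The change at dpc16 gave 0 members for zone 1 minus zone 3 (0.054% of all genes), 0 for zone 1 minus zone 2 (0%, with 555 genes at an unadjusted p under 0.05) and 0 for zone 2 minus zone 3 (0.0154%). The largest member difference was that of Slc16a10 in zone 1 minus zone 2, at 1.47 with a 95% interval from 0.49 to 2.44 (limma adjusted p = 0.782). For Slc38a4 in zone 1 minus zone 3 it was 1.12 with a 95% interval from 0.00 to 2.24 (limma adjusted p = 0.993).

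The zone difference of Slc38a4 within dpc16 was 1.39 for zone 1 minus zone 3 with a 95% interval from 0.60 to 2.18 (limma adjusted p = 0.0773). Without the libraries with Y-linked FPKM it was 0.96 and was called (limma adjusted p = 0.03347). With the replicate block its limma adjusted p was 0.02461, so that 3 members were called at dpc16 in place of 1, while calls over all genes went from 201 to 312. Hepatocyte markers at dpc16 also summed higher in zone 1, at 168500 to 223200 FPKM against 61780 to 153000 in zone 3. Kupffer cell markers summed to 75.96 to 128.2 against 24.22 to 45.65, and sinusoidal endothelium markers to 110.1 to 123.1 against 60.27 to 101.9. Biliary markers summed to 4.92 to 10.87 against 0.01454 to 3.29, while stellate cell markers overlapped. The part of these sums in the zone difference was not tested.

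Slc38a3, the member with the highest level, did not pass in any comparison. Its group means ran from 461 ± 189 (SD, n = 3) FPKM in zone 2 at dpc16 to 844 ± 367 in zone 1 of NP mice, and each group overlapped the next in the order of the means. Within the NP zone 1 group its libraries read 552.2, 722.9 and 1256 FPKM. The spread between libraries of one group was thus as wide as that between group means. In each group that holds a library with Y-linked FPKM, that library had the lowest value, 552.2 in the NP zone 1 group. Without these libraries the group means ran from 561.9 FPKM in zone 3 at dpc16 to 989.5 in zone 1 of NP mice.

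Slc38a2 (SNAT2), a system A carrier that is known to be induced by amino acid shortage, did not pass in any comparison either. In NP mice its libraries read 85.0, 48.7 and 53.1 FPKM in zone 1, 89.4, 40.1 and 30.6 in zone 2, and 76.6, 32.5 and 38.4 in zone 3. At dpc8 they read 78.7, 55.5 and 51.8 in zone 1, 90.8, 45.3 and 40.0 in zone 2, and 82.5, 35.3 and 29.9 in zone 3. At dpc16 they read 84.0, 66.5 and 90.9 in zone 1, 89.0, 62.1 and 61.3 in zone 2, and 72.4, 55.5 and 53.9 in zone 3. In each of the NP and dpc8 groups the library numbered 1 lay above the other libraries, and what the number stands for is not given in the labels. The log2 fold change at dpc16 against NP was 0.40 in zone 1, where it turned to -0.21 with each library scaled to the same sum, 0.53 in zone 2 and 0.38 in zone 3.

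Slc3a2 (CD98 heavy chain), which brings light chains of the Slc7 family to the cell surface, had group means from 38.0 ± 11.3 to 67.8 ± 6.73 (SD, n = 3) FPKM and passed in no comparison. The library with Y-linked FPKM had the highest value of its group, except in zone 3 at dpc16. Without these libraries the group means ran from 33.7 FPKM in zone 3 of NP mice to 64.7 in zone 1 at dpc8. The 74.1 FPKM below came from such a library. At dpc8 its libraries read 74.1, 60.7 and 68.7 FPKM in zone 1, above the 47.6, 48.3 and 45.4 in zone 3, with a log2 fold change of 0.51 and a 95% interval from -0.34 to 1.36. The order was opposite at dpc16, where they read 49.7, 37.3 and 27.1 FPKM in zone 1 and 53.5, 72.0 and 50.4 in zone 3, which did not overlap, with a log2 fold change of -0.64 and a 95% interval from -1.48 to 0.21. In zone 1 the dpc16 libraries also lay below those of dpc8, with a log2 fold change of -0.86 and a 95% interval from -1.70 to -0.01.

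A ratio of 2 genes within a library does not depend on how the library was scaled. These ratios were chosen after the values had been seen and carry no test. Slc38a4 to Slc38a3 ranged from 0.456 to 1.12 in the 9 NP libraries and from 0.466 to 0.878 in the 9 dpc8 libraries, against 0.0979 to 0.366 in the 9 dpc16 libraries. Slc43a1 to Slc38a3 ranged from 0.00500 to 0.0138 in NP, from 0.00442 to 0.0109 at dpc8 and from 0.0193 to 0.0416 at dpc16. Slc38a2 to Slc38a4, both system A carriers, ranged from 0.0650 to 0.271 in NP, from 0.0965 to 0.309 at dpc8 and from 0.380 to 1.45 at dpc16. In all 3 ratios the dpc16 libraries did not overlap those of the other stages, whereas Slc7a2 to Slc38a3 and Slc16a10 to Slc38a3 overlapped. The ratios share Slc38a4 and Slc38a3 with each other and are not separate results. How many gene pairs at large stand apart in this way was not computed.

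**Figure D3:**
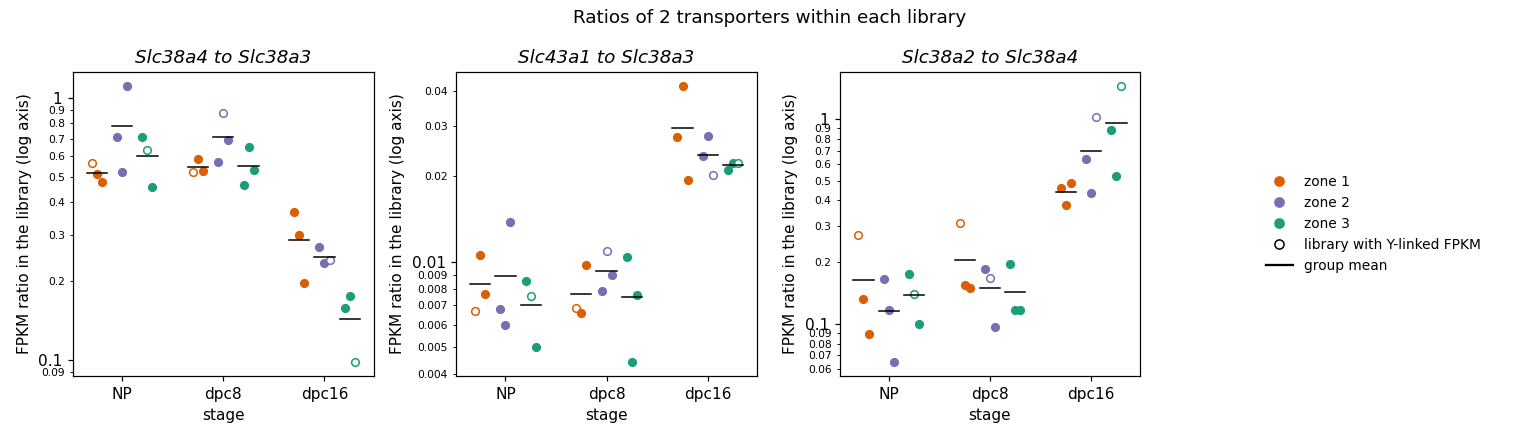
Ratio of FPKM of 2 transporters in each library (log axis) by stage, with zones in colour, bars for the group mean and hollow points for the 6 libraries with Y-linked FPKM. The dpc16 libraries stand apart in all panels, for example at 0.0979 to 0.366 for Slc38a4 to Slc38a3 against 0.456 or more elsewhere.

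The members' levels were compared with each other and with all genes tested by the Pearson correlation of mean log2(FPKM + 1) over the 9 groups, a description over few points that share libraries. Slc38a4 and Slc7a2 had an r of 0.916 over the groups and 0.891 over the 27 libraries. Slc38a2 and Slc16a10 had an r of -0.906 over the groups and -0.355 over the libraries. Genes among the most like each member were Rnf138 (0.989), Acat3 (0.976) and Cpped1 (0.973) for Slc38a4, Mfsd4b3-ps (0.989) and Cyb5a (0.981) for Slc16a10, and Serpina1b (0.984), Tstd2 (0.983) and F10 (0.983) for Slc43a1. For Slc7a2 they were Sdhd (0.985), Gas2 (0.980) and Atp7b (0.972), for Slc38a3 Sncaip (0.990), Ddo (0.969) and Ppl (0.965), and for Slc38a2 Kdelr2 (0.989), Pnpla3 (0.987) and Glce (0.974). Slc3a2 had the least close neighbours, Tead4 (0.940), Kifc1 (0.935) and Arsk (0.931).

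Of 31 other plasma membrane amino acid transporters, 18 passed the filter and 6 were called in at least 1 of the 19 comparisons, beside 9.9% of all genes tested. Slc1a2, a glutamate carrier, was higher in zone 3, with zone 3 means of 352 ± 73.3, 376 ± 134 and 693 ± 215.5 (SD, n = 3) FPKM at NP, dpc8 and dpc16, and Slc3a1, the rBAT heavy chain for cystine transport, was higher in zone 1. Their log2 fold changes for zone 1 minus zone 3 in NP mice were -6.77 (limma adjusted p = 4.314e-09) and 4.27 (limma adjusted p = 1.351e-05). Slc6a9 (GLYT1), a glycine carrier, rose at dpc16 against NP by 3.13, 2.98 and 2.96 in zones 1, 2 and 3 (limma adjusted p = 0.001634, 0.002129 and 0.002378), and the zone 2 call was lost in a fit of the compared groups alone (limma adjusted p = 0.0812). Slc7a7, a light chain that pairs with Slc3a2, rose in zone 1 by 1.75 (limma adjusted p = 0.01117), a call lost with same-sum scaling, in a fit of the compared groups alone, and without NP zone 1 replicate 1 or dpc16 zone 1 replicate 1. Slc1a4, a carrier of small neutral amino acids, was lower in zone 1 than in zone 3 over the stages by -1.60 (limma adjusted p = 0.007132). Slc6a6, a taurine carrier, fell in zone 1 from dpc8 to dpc16 by 1.01 on the log2 scale (limma adjusted p = 0.02494), a call lost without dpc8 zone 1 replicate 2 or 3 or dpc16 zone 1 replicate 1 or 2, and in a fit of the compared groups alone (limma adjusted p = 0.0906). Without the 6 libraries with Y-linked FPKM, 8 of the 16 that passed the filter were called in at least 1 comparison, beside 2088 of 12270 genes. Slc6a6 was then lower at dpc16 than in NP by -0.82, -0.89 and -0.87 in zones 1, 2 and 3 (limma adjusted p = 0.03694, 0.01703 and 0.04009), and lower than at dpc8 by -1.12 in zone 1 and -0.77 in zone 3 (limma adjusted p = 0.003793 and 0.04218). The genes called there and not with all libraries were Slc1a5, a neutral amino acid exchanger, and Slc7a5, a light chain that pairs with Slc3a2, at -1.13 and -0.89 for zone 1 minus zone 3 over the stages (limma adjusted p = 0.004162 and 0.01113), with Slc1a5 also at -1.04 for zone 2 minus zone 3 (limma adjusted p = 0.01718). In that fit Slc7a7 was called at dpc16 against dpc8 in all zones and Slc6a9 at dpc16 against both other stages in all zones. With all libraries, Slc7a7 (1.66 and 1.46) and Slc6a9 (2.24 and 2.21) were called against dpc8 in zones 1 and 2, and not in zone 3. Slc1a2 rose from dpc8 to dpc16 in zone 2 by 1.94 with all libraries and by 2.23 in the fit without the 6. Each of these calls with all libraries was lost under some other setting and when some single libraries were left out.

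**Figure D4:**
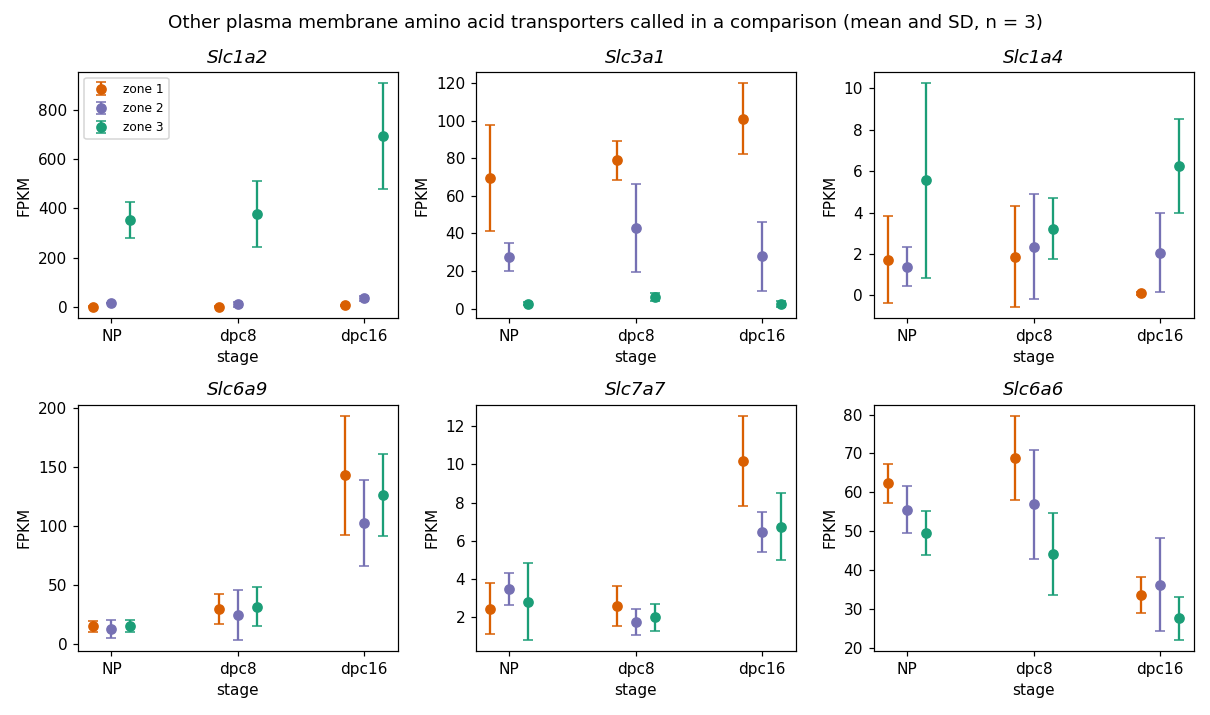
Mean FPKM with SD (n = 3) by stage for the 6 other plasma membrane amino acid transporters called in a comparison, with zones in colour. Slc1a2 is high in zone 3, Slc3a1 in zone 1, and Slc6a9 is higher at dpc16 in all zones.

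Of 9 mitochondrial amino acid carriers, 7 passed the filter, and 0 were called by limma in any of the 19 comparisons, beside the same 9.9% of all genes. At an unadjusted p under 0.05 in at least 1 comparison, 2 of the 7 passed, beside 6723 of all genes tested (51.9%). Without the 6 libraries with Y-linked FPKM, 6 of the 7 passed at that level, beside 58.9% of all genes, and limma again called 0. All 14 genes of the amino acid response through ATF4 passed the filter, and 0 were called by limma, while 7 had an unadjusted p under 0.05 in at least 1 comparison, beside 51.9% of all genes. For dpc16 against NP their median log2 fold changes were -0.05, 0.63 and 0.68 in zones 1, 2 and 3, beside -0.05, 0.04 and 0.02 over all genes tested. Zones 2 and 3 at dpc16 each hold 1 library with Y-linked FPKM, and without the 6 such libraries the medians of these 14 genes were 0.28, 0.20 and 0.50, beside 0.00, -0.04 and -0.03 over all genes. In that fit limma called 6 of the 14 in at least 1 of the 19 comparisons, beside 2088 of 12270 genes tested. It called 3 of them for dpc16 against NP in zone 3, beside 475 of 12270 genes tested: Psph, the last enzyme of serine synthesis, rose by 1.75 (limma adjusted p = 0.005122), the transcription factor Atf5 rose by 2.30 (limma adjusted p = 0.03513) and the transcription factor Atf3 fell by 1.60 on the log2 scale (limma adjusted p = 0.02817). Psph also rose against dpc8 in zone 3, by 1.35 (limma adjusted p = 0.01453), and Ddit4, an inhibitor of mTORC1, rose against dpc8 in zone 1 by 1.45 (limma adjusted p = 0.03183). Over the stages, zone 1 minus zone 3 was 0.72 for Atf3 and -0.40 for Eif4ebp1, a repressor of cap-dependent translation (limma adjusted p = 0.03939 and 0.02887), and zone 2 minus zone 3 was -1.65 for Nupr1 (limma adjusted p = 0.03515). These medians and genes were added after the values had been seen. The 18 plasma membrane transporters had medians of 0.01, 0.26 and 0.15 for dpc16 against NP with all libraries, and the 16 that passed the filter without the 6 libraries had medians of -0.12, -0.08 and 0.15.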

How the data were processed

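RNA-seq libraries from laser-microdissected zones of mouse liver were analysed, 3 for each of 9 groups taken from the sample titles. The deposited values are FPKM, computed by the authors with Cuffdiff of Cufflinks 2.2.1 over protein-coding GENCODE genes after trimming with cutadapt and alignment to mm10 with HISAT2 2.1.0. The table holds no read counts. Depth was estimated from low FPKM values of 2952 single-transcript genes, as the read number that puts at least a share of 0.9 of at least 100 low values within 0.1 of a whole read, which 23 of 27 libraries met. That rule was followed by 2 looser ones: a share of 0.8 left 23 libraries, and a share of 0.8 with a minimum of 30 values, chosen to reach the remaining libraries, gave all 27. Depths were 7.56 to 33.54 M under both, and 0 libraries moved by over 5% from the first rule. One read on 1 kilobase of effective length equals 0.0297 to 0.132 FPKM.

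The 12952 genes that reached 1 FPKM in 3 or more libraries were tested on log2(FPKM + 1) with limma 3.58.1 (R 4.3.3), with 9 group means, an intensity trend and robust settings, two-sided, with Benjamini-Hochberg adjustment within each of 19 comparisons. Cuffdiff, the study's test, needs reads. The procedure was tested on simulated data. The text names every member, every list gene called in a comparison and the 3 genes most like each member, except for a gene that meets this rule and is not reported here. The members and lists were chosen with earlier results of these data known. Same-numbered libraries of different zones were checked for shared deviations from group means: at dpc16 all 9 correlations were over 0.1 (0.263 to 0.863), against 4 of 9 in NP and 5 of 9 at dpc8. The values reported come from the fit without a block, and values with the replicate block are given where it changed a call at dpc16. Promoter sequences are from RefSeq on GRCm38.p6.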

Additional observations from a re-analysis of the deposited data

How the results depend on the processing

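Each count of members called was recomputed under 9 alternatives and without each library in turn, and no call changed direction. At dpc16, zone 1 against zone 3, the count of 1 became 2 with libraries scaled to the same sum, 2 with quantile normalization, 0 with only the groups compared, 3 with array weights, 3 with the replicate block within stage and 2 when libraries with Y-linked FPKM were dropped, and 0 to 1 with a library left out. Over the stages, zone 1 against zone 3 gave 3 with array weights and 1 to 2 with a library left out in place of 2, zone 1 against zone 2 gave 1 with same-sum scaling, 1 with array weights and 0 to 1 with a library left out in place of 0, and zone 2 against zone 3 gave 2 with array weights in place of 1. For dpc16 against NP, zone 1 gave 2 with same-sum scaling and 1 with quantile normalization, array weights or without the Y-linked libraries, in place of 0. Zone 2 gave 3 with same-sum scaling, 3 with array weights and 0 with only the groups compared in place of 2. Zone 3 gave 3 with same-sum scaling, 0 with only the groups compared, 3 with array weights and 2 without the Y-linked libraries in place of 1. For dpc16 against dpc8, zone 1 gave 3, 2 and 2 with same-sum scaling, array weights and without the Y-linked libraries, and 0 to 1 with a library left out, in place of 1. Zone 2 gave 3 with same-sum scaling, 3 with array weights, 0 with only the groups compared and 0 to 2 with a library left out in place of 2. Zone 3 gave 3 with same-sum scaling, 2 with only the groups compared, 3 with array weights and 2 without the Y-linked libraries in place of 1. Calls over all genes moved as well: in these 6 comparisons of dpc16 they numbered 171 to 345 as reported, 623 to 1521 with same-sum scaling, 667 to 1567 with array weights, 380 to 587 without the Y-linked libraries and 0 to 243 with only the groups compared. For the zone comparisons, calls over all genes went from 201 at dpc16 to 496 with array weights, 312 with the replicate block, 346 without the Y-linked libraries, 238 with same-sum scaling, 197 with quantile normalization and 174 with only the groups compared. Over the stages, array weights raised them from 724 to 1450 for zone 1 against zone 3, from 119 to 236 for zone 1 against zone 2 (140 with same-sum scaling) and from 244 to 623 for zone 2 against zone 3. The cause was not tested, except that fits on only the groups compared use fewer samples. Same-sum scaling moved the median log2 fold change of all genes at dpc16 against NP to -0.572, -0.195 and -0.212 in zones 1, 2 and 3. The replicate block changed no other count of members. One read on 1 kilobase equals 0.0297 FPKM in the deepest and 0.132 in the shallowest library with an estimate.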
